A study of Mus musculus with 6 samples.

Results

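Fibroblast growth factor (FGF) signalling was examined through 10 genes of 29595 in the deposited table: the ligands Fgf1, Fgf2, Fgf7, Fgf9 and Fgf21, the receptors Fgfr1, Fgfr2, Fgfr3 and Fgfr4, and the receptor-like gene Fgfrl1. They were picked by gene symbol, with Fgf1 leading because of its difference in these same libraries, so the difference between groups is given for them as a description, with no p-value. The cells were TKPTS cells, a mouse kidney proximal tubule line, transfected with pcDNA3.1-Hnf3a-Flag, which carries Flag-tagged HNF3α (the Hnf3a group, n = 3), or with pcDNA3.1-Flag, which has no insert (the pcDNA group, n = 3), and harvested 24 hours later. HNF3α, a forkhead transcription factor, is encoded by Foxa1. Both groups are the same line, and each received a plasmid. RNA was sequenced in bulk, so that fewer cells with a transcript and less of it per cell cannot be told apart.

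FGF ligands bind receptor tyrosine kinases at the cell surface, together with heparan sulfate or a Klotho protein, and the activated receptor signals through adaptors to the RAS-ERK cascade. Paracrine ligands such as those of Fgf1, Fgf2, Fgf7 and Fgf9 act locally and use heparan sulfate, whereas the product of Fgf21 is a circulating hormone that needs the co-receptor β-Klotho. In the kidney, signalling through the product of Fgfr2 is known for its part in growth of the ureteric bud. The product of Fgfrl1 binds ligands but lacks the kinase domain.

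RefSeq promoter windows (GRCm38.p6) were found for 8 of the 10 genes, all but Fgf1 and Fgfr1. The 250 bases upstream of the start annotated by RefSeq are printed for Fgf7, which had the highest level of the genes studied, for the receptor genes Fgfr2 and Fgfr3, which together made up most of the receptor transcripts, and for Fgfrl1. The Fgf7 window is chr2:126034408-126034657 on the plus strand, the Fgfr2 window is chr7:130266809-130267058 on the minus strand, the window of the upstream start of Fgfr3 is chr5:33721474-33721723 on the plus strand, and the Fgfrl1 window is chr5:108693979-108694228 on the plus strand. The Fgf7 window ends where the gene begins in the deposited table. The RefSeq starts of Fgfr2, Fgfr3 and Fgfrl1 lie inside the genes as the table bounds them (130162451 to 133123350, 33721674 to 33737068 and 108692382 to 108706896). Capitals mark matches to the GC box letters GGGCGG on either strand.
Fgf7: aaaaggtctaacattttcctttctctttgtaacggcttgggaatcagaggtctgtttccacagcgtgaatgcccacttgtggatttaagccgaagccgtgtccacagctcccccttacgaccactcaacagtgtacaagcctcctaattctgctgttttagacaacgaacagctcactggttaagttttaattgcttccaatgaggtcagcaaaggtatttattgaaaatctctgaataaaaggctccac
Fgfr2: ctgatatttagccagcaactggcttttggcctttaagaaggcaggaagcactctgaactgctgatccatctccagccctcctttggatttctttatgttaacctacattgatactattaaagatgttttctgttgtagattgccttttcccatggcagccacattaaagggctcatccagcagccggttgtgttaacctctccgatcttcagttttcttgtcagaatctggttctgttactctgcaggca
Fgfr3: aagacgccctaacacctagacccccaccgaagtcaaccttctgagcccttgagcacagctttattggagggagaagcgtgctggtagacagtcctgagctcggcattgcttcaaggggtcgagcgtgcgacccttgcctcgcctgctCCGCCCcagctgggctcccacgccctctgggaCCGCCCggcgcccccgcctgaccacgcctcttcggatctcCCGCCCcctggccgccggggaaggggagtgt
Fgfrl1: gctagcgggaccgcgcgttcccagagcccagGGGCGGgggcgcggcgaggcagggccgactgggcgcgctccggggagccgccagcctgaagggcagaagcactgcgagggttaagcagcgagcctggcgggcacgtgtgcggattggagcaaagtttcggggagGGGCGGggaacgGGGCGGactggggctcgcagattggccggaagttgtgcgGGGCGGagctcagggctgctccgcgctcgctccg

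The 4 windows fall into 2 kinds by base content. Those of Fgf7 and Fgfr2 held 43.6% and 44.0% G and C and no GC box, whereas those of Fgfr3 and Fgfrl1 held 66.8% and 73.6% G and C with 3 and 4 GC boxes. The median G and C content over 32851 promoter windows was 52.4%, and 32.7% of them held a GC box. Forkhead letters were searched on both strands as TGTTTAC, found in 3.17% of all windows, as TATTTAC, found in 2.73%, and as TGTTTGC, found in 4.30%. At least one of them was in 9.73% of all windows. None of the 9 windows of the 8 genes held them. Fgf1 and Fgfr1, which had no window, were not searched. A match, or its absence, describes these letters in this window only.

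Where 3 values of a group are listed, they stand in the order of replicates 1, 2 and 3, and "with HNF3α" refers to the Hnf3a libraries and "with the empty plasmid" to the pcDNA libraries. The total estimated count was between 60473818 and 71154667 in the 6 libraries, and 17824 genes passed the filter on low counts. Estimated counts piled up at exactly 4, so 12 counts, about 3 read pairs, were taken as the detection floor. It equals between 0.169 and 0.198 CPM (counts scaled for library size), and covers counting error only. Foxa1 stood at 334.2, 295.5 and 284.2 FPKM (fragments per kilobase, scaled for library size) with HNF3α, against 9.49, 9.54 and 9.96 FPKM with the empty plasmid. Every library of the group labelled with the Hnf3a plasmid was higher. The kidney epithelial genes Pax8 and Epcam reached 29.2 ± 1.98 and 104.2 ± 1.009 FPKM with the empty plasmid (SD, n = 3). Defining genes of the mature proximal tubule were near 0 there: Lrp2 and Cubn stood at 0.0260 ± 0.0137 and 0.0312 ± 0.00557 FPKM (SD, n = 3), and Slc5a2 had at most 3 counts in any library. The list of 17 epithelial genes, 16 of them in the table, summed to 684 to 694 FPKM with HNF3α and 639 to 647 FPKM with the empty plasmid, and 1 gene of it passed the test (Krt18, higher).

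Fibroblast genes and some macrophage genes set 2 libraries apart. The summed level of 11 fibroblast genes was 8.04 and 9.97 FPKM in Hnf3a replicates 2 and 3, and between 0.193 and 0.330 FPKM in the other libraries. Col1a1, a fibrillar collagen, had 33, 2694 and 3099 counts with HNF3α, and 0, 16 and 5 with the empty plasmid. The 8 macrophage genes summed to between 15.6 and 21.9 FPKM in the Hnf3a group and between 14.8 and 17.1 FPKM in the pcDNA group, and C1qa was at 0 in every library but Hnf3a replicates 2 and 3. Most of the macrophage sum was Cd68, which overlapped between groups (11.8 ± 0.810 and 11.6 ± 0.751 FPKM, SD, n = 3, Hnf3a then pcDNA). The 6 endothelial genes summed to between 0.489 and 0.491 FPKM in the Hnf3a group and between 0.758 and 1.007 FPKM in the pcDNA group. Most of this was Cdh5, with means of 0.362 and 0.846 FPKM (Hnf3a then pcDNA). Pecam1, Kdr, Tek and Tie1 had higher means with HNF3α and Emcn a lower one, all at low levels. By edgeR's quasi-likelihood test 2 endothelial genes (Cdh5 lower, Tek higher) passed, along with 0 of 9 fibroblast and 0 of 4 macrophage genes tested, of which 5 and 1 had an unadjusted p under 0.05. The DESeq2 Wald test called 3 fibroblast genes (Col1a1, Col1a2 and Col3a1) and 0 macrophage genes, and limma on log2(FPKM + 0.1) called 0 of either. Of the endothelial genes, DESeq2 called both and limma called Cdh5 but not Tek. Tek had 11, 15 and 16 counts with HNF3α, close to the floor of 12 counts, and 0 in each pcDNA library. The part of these cell types in the differences was not tested, and values without Hnf3a replicates 2 and 3 are given beside the results. That setting leaves 1 Hnf3a library against 3 pcDNA libraries, so a call lost there is not read.

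Of the 10 genes, Fgf7 was by far the most abundant in both groups, followed by Fgfrl1 and Fgf1, while Fgf9 was barely detected. In the pcDNA group the order by FPKM was Fgf7, Fgfrl1, Fgf1, Fgfr2, Fgfr3, Fgf21, Fgfr4, Fgfr1, Fgf2 and Fgf9. Neighbours from Fgf21 to Fgf2 overlapped between libraries and cannot be ordered. In the Hnf3a group, every Fgfr1 value stood above every value of Fgf21, Fgfr4 and Fgf2, and Fgfr2 and Fgfr3 overlapped. Only 1 of the 10 genes exceeded 10 FPKM, and 5 stayed under 1 FPKM in every library.

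**Figure D1:**
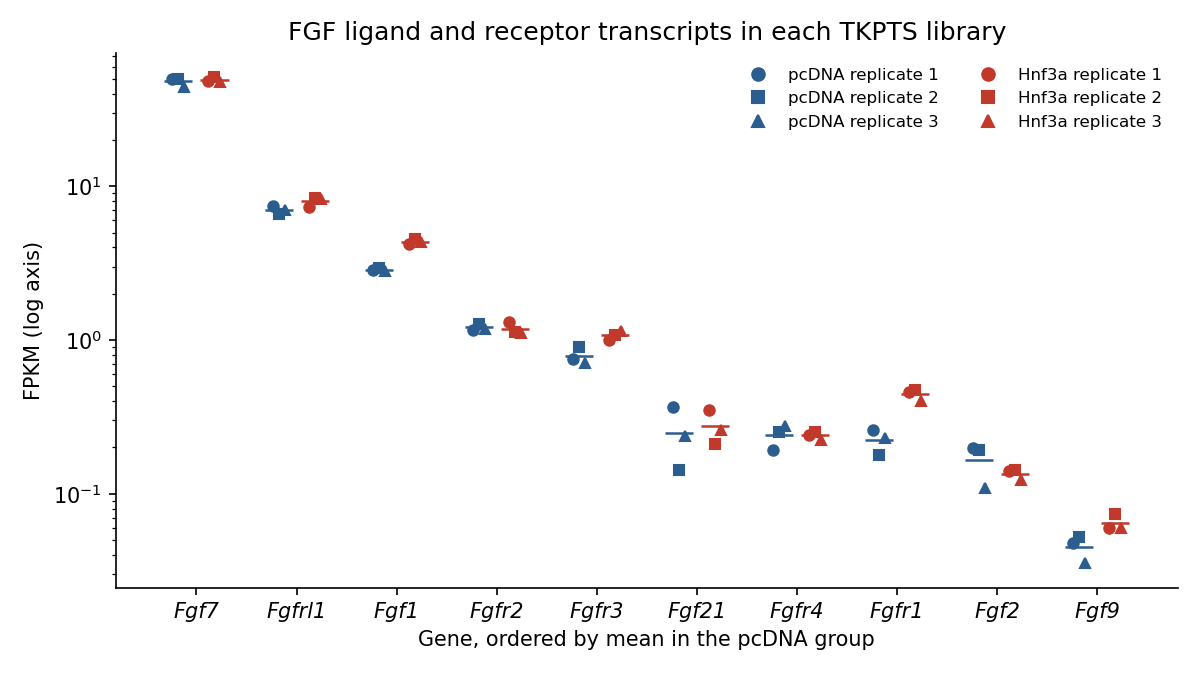
Level of each gene in FPKM on a log axis, with 1 point per library (blue, pcDNA; red, Hnf3a; the shape gives the replicate number) and a line at the group mean. The points of Fgf1, Fgfr1, Fgfr3 and Fgf9 do not overlap between groups, and Fgf7 lies near 48 FPKM in both.

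Fgf1 encodes acidic FGF, a ligand of all FGF receptors that lacks a signal peptide and leaves the cell by an unconventional route. It stood at 4.24, 4.53 and 4.32 FPKM with HNF3α. With the empty plasmid it stood at 2.85, 2.93 and 2.80 FPKM. Every Hnf3a library lay above every pcDNA library, and the spread within a group was small beside the distance between groups. The estimated counts were 1685, 1964 and 1739 against 1055, 1179 and 1120. Group means were 4.36 ± 0.149 and 2.86 ± 0.0654 FPKM (SD, n = 3), and the log2 fold change in counts was 0.60 ± 0.060 (SE), a 1.51-fold difference. Without Hnf3a replicates 2 and 3 it was 0.56. Leaving out each library in turn gave values from 0.57 to 0.62.

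Fgf1 (ENSMUSG00000036585) is placed on chromosome 18 between 38838673 and 38929472, minus strand, in GRCm38, and its longest annotated transcript has 5 exons. The row named Arhgap26 in the table runs on the plus strand from 38993145 to 39376284 and starts 63673 bases upstream of the start of Fgf1, so the 2 do not overlap. GENCODE vM21 holds another gene also named Arhgap26 on the plus strand, from 38676718 to 39110534. It spans the 90800 bases of Fgf1 without sharing an exonic base, and it has no row among the values used here. The lincRNA Gm5820 on the plus strand overlaps Fgf1 by 37015 bases, again with 0 exonic bases. Arhgap26 had 12.2 ± 0.311 FPKM in the Hnf3a group and 12.7 ± 0.444 FPKM in the pcDNA group (SD, n = 3), and its log2 fold change was -0.074 ± 0.037 (SE; edgeR adjusted p = 0.43). Gm5820 had between 2 and 22 counts per library. Intronic reads from the other strand were not tested, since no values by strand were used.

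**Figure D2:**
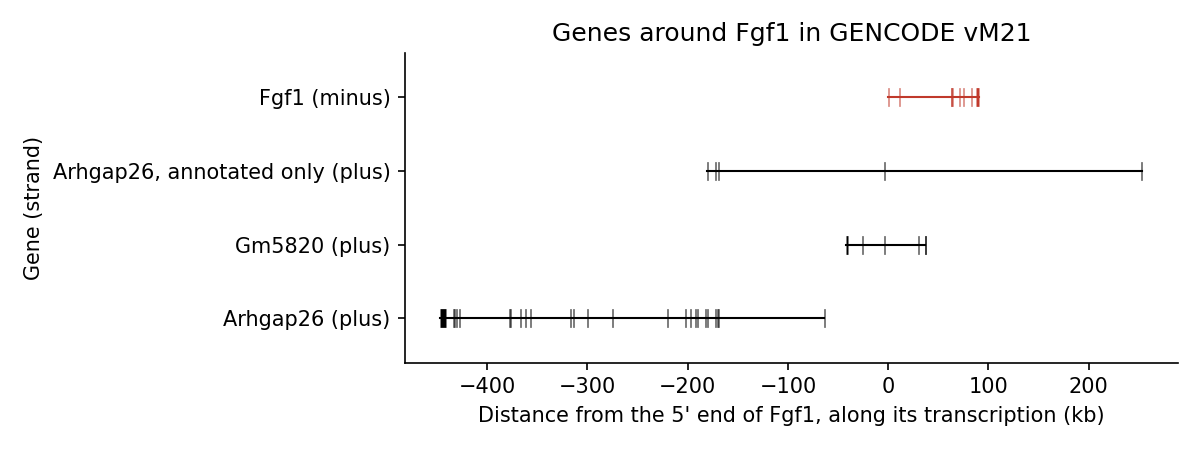
Position of Fgf1 and neighbouring genes of GENCODE vM21, in kilobases from the 5' end of Fgf1 along its direction of transcription (lines, gene extent; ticks, exons of all transcripts). The Arhgap26 row of the deposited table lies wholly upstream, and the genes that overlap Fgf1 share no exonic base with it.

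The other ligands showed no such separation at levels well above the floor. Fgf7, which encodes keratinocyte growth factor, a ligand made by mesenchyme that acts on the epithelial form of the Fgfr2 product, stood at 48.2, 51.2 and 47.5 FPKM with HNF3α and at 50.1, 49.9 and 44.5 FPKM with the empty plasmid. The groups overlapped, and the log2 fold change was 0.015 ± 0.046 (SE). By mean FPKM of the pcDNA group, its percentile among the genes tested was 94.3. Fgf7 (ENSMUSG00000027208) spans 126034658 to 126091185 on chromosome 2, plus strand, and its longest annotated transcript has 4 exons. Without Hnf3a replicates 2 and 3, the libraries with fibroblast transcripts, its log2 fold change was 4.2e-04, and Hnf3a replicate 1 alone held 11377 counts.

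Fgf2, which encodes basic FGF, had 70, 79 and 63 counts with HNF3α and 92, 97 and 55 with the empty plasmid. The groups overlapped because pcDNA replicate 3 was lowest of all, and the log2 fold change was -0.29 ± 0.27 (SE). Leaving out pcDNA replicate 1, 2 or 3 moved it to -0.15, -0.18 or -0.52, and leaving out Hnf3a replicates 2 and 3 together to -0.25. Fgf2 shares 640 exonic bases, 9.44% of its own, with Nudt6 on the opposite strand, and 255 bases, 3.76%, with Gm43439 on the same strand, so its counts are uncertain. Nudt6 had a log2 fold change of -0.024 ± 0.28 (SE), and Gm43439 had at most 1 count in a library.

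Fgf9 and Fgf21 were close to the floor of 12 counts. Fgf9, a ligand known from development of the gonad, lung and kidney, had 21, 28 and 22 counts with HNF3α and 16, 19 and 13 with the empty plasmid. The groups did not overlap, yet the distance between Hnf3a replicate 1 and pcDNA replicate 2 was 2 counts, less than 1 read pair, and the log2 fold change was 0.47 ± 0.46 (SE). It was 0.36 without Hnf3a replicates 2 and 3. Fgf21 had 25, 16 and 19 counts against 24, 11 and 17. These overlapped, with a log2 fold change of 0.12 ± 0.52 (SE), and it turned to -0.14 without pcDNA replicate 2, the library under the floor, and to -0.11 without Hnf3a replicate 1. Leaving out pcDNA replicate 1 gave 0.47, leaving out Hnf3a replicate 2 gave 0.29, and leaving out Hnf3a replicates 2 and 3 together gave 0.48.

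Among the receptor genes, Fgfr1 and Fgfr3 were higher in every Hnf3a library than in every pcDNA library, and Fgfr2 and Fgfr4 were not. Fgfr1, whose product is a receptor prominent in mesenchymal cells, stood at 0.458, 0.474 and 0.404 FPKM with HNF3α and at 0.261, 0.180 and 0.232 FPKM with the empty plasmid. The lowest Hnf3a library was well above the highest pcDNA library. The counts were 334, 378 and 300 against 176, 134 and 170, and the log2 fold change was 0.98 ± 0.16 (SE), a 1.98-fold difference. It was 1.03 without Hnf3a replicates 2 and 3, and between 0.85 (without pcDNA replicate 2) and 1.10 (without pcDNA replicate 1) when each library was left out. Fgfr1 thus had the larger fold difference of the pair with Fgf1, but its percentile among the genes tested, by mean FPKM of the pcDNA group, was 16.8, against 47.2 for Fgf1. It (ENSMUSG00000031565) spans 25513654 to 25575718 on chromosome 8, plus strand, with 18 exons in the longest annotated transcript. The antisense gene Gm16159 shares 164 of its exonic bases, 1.66%, and had at most 3 counts in a library.

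Fgfr3, whose product restrains growth of cartilage and is also made by many epithelia, stood at 0.994, 1.08 and 1.15 FPKM with HNF3α and at 0.756, 0.895 and 0.711 FPKM with the empty plasmid. The groups lay apart, by a margin about as large as the SD with the empty plasmid. The log2 fold change was 0.44 ± 0.12 (SE), a 1.35-fold difference, and it was 0.34 without Hnf3a replicates 2 and 3. Fgfr3 (ENSMUSG00000054252) spans 33721674 to 33737068 on chromosome 5, plus strand, and G630022F23Rik shares 998 of its exonic bases, 13.9%, and had at most 7 counts in a library.

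Fgfr2 stood at 1.32, 1.13 and 1.12 FPKM with HNF3α and at 1.17, 1.26 and 1.19 FPKM with the empty plasmid. The groups overlapped, with Hnf3a replicate 1 highest and the other two Hnf3a libraries lowest. The log2 fold change was -0.030 ± 0.087 (SE), and 0.13 without Hnf3a replicates 2 and 3. Fgfr2 is annotated from 130162451 to 133123350 on the minus strand of chromosome 7. Over this extent it overlaps 69 genes, of which 1, Ctbp2, shares exonic bases (314, or 3.04% of those of Fgfr2). The RefSeq start lies just below 130266809, and the overlapping gene nearest to it, Gm5903, begins at 130352038. The 69 genes thus all lie upstream of the RefSeq start and overlap only the longer annotated extent. Ctbp2 had a log2 fold change of -0.0088 ± 0.050 (SE), and of the 23 overlapping genes tested 0 passed by edgeR, by the DESeq2 Wald test or by limma on log2(FPKM + 0.1), with 0, 0 and 1 at an unadjusted p under 0.05.

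Fgfr4, the receptor gene known for its part in bile acid control in the liver, had 63, 72 and 59 counts with HNF3α and 47, 67 and 72 with the empty plasmid. The Hnf3a values lay within the range of the pcDNA values, and the log2 fold change was -0.019 ± 0.26 (SE). It lay between -0.15 (without pcDNA replicate 1) and 0.085 (without pcDNA replicate 3) when each library was left out, and was 0.00076 without Hnf3a replicates 2 and 3. Fgfrl1 stood at 7.36, 8.43 and 8.32 FPKM with HNF3α and at 7.40, 6.61 and 6.99 FPKM with the empty plasmid. Hnf3a replicate 1 was below pcDNA replicate 1, so the groups overlapped, and the log2 fold change was 0.19 ± 0.069 (SE). It was 0.073 without Hnf3a replicates 2 and 3, the libraries with fibroblast transcripts.

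**Figure D3:**
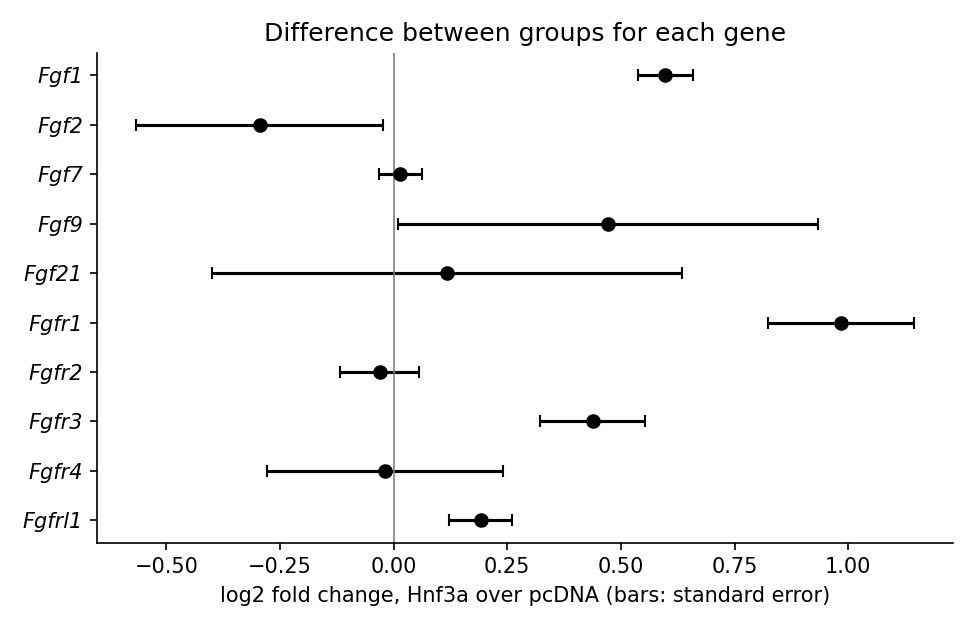
Log2 fold change of each gene, Hnf3a over pcDNA, fitted by edgeR to the estimated counts of 3 libraries per group (bars, standard error). Fgf1 and Fgfr1 lie farthest from 0 relative to their bars, and the bars of Fgf9 and Fgf21, which had few counts, are the widest.

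Of the 10 genes, 2 (Fgf1 and Fgfr1) passed an adjusted p of 0.05, 2 as higher and 0 as lower with HNF3α, where 3.17% of all genes tested passed, 1.04% higher and 2.13% lower. The groups did not overlap in CPM for 4 of the 10 (Fgf1, Fgf9, Fgfr1 and Fgfr3), where this held for 18.9% of all genes tested. Fgfr1 was not past the threshold in the 3 limma fits on log2(FPKM + pseudocount), where its log2 fold change was 0.97, 0.76 and 0.24 at pseudocounts of 0.01, 0.1 and 1. Without Hnf3a replicates 2 and 3 its log2 fold change was 1.03. Fgfr3 passed as well with the DESeq2 Wald test and with counts divided by 4. Nothing is read from how many of the 10 genes passed, since they were selected from the same comparison. The median log2 fold change was 0.15 over the 10 genes and 8.5e-04 over all genes tested.

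The receptor transcripts held a smaller share of Fgfr2 and a larger share of Fgfr1 in every Hnf3a library than in every pcDNA library. Fgfr1 took 15.2%, 16.2% and 13.98% of the summed FPKM of the 4 kinase receptor genes with HNF3α, and 11.0%, 6.93% and 9.65% with the empty plasmid. The groups did not overlap, with means of 15.1% ± 1.09 and 9.18% ± 2.06 (SD, n = 3), 5.94 percentage points apart. Fgfr2 took 40.3% ± 3.00 and 49.1% ± 0.324, Fgfr3 took 36.5% ± 3.32 and 32.0% ± 2.52, and Fgfr4 took 8.13% ± 0.474 and 9.77% ± 1.71 in the Hnf3a and pcDNA groups (SD, n = 3). The Fgfr2 share was 8.81 percentage points lower in the Hnf3a group, and the shares of Fgfr3 and of Fgfr4 overlapped between groups. The level of Fgfr2 itself overlapped between groups (1.19 ± 0.112 and 1.21 ± 0.0489 FPKM, SD, n = 3, Hnf3a then pcDNA). Its lower share therefore restates the higher Fgfr1 and Fgfr3 levels in the sum and is not a separate result. In Hnf3a replicate 1, the Hnf3a library with few fibroblast transcripts, the shares of Fgfr1, Fgfr2, Fgfr3 and Fgfr4 were 15.2%, 43.7%, 33.0% and 8.00%. Fgfr2 had the largest share in every library but Hnf3a replicate 3, where Fgfr3 exceeded it. Summed, the 4 genes reached 2.94 ± 0.0605 FPKM in the Hnf3a group and 2.46 ± 0.115 FPKM in the pcDNA group (SD, n = 3).

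**Figure D4:**
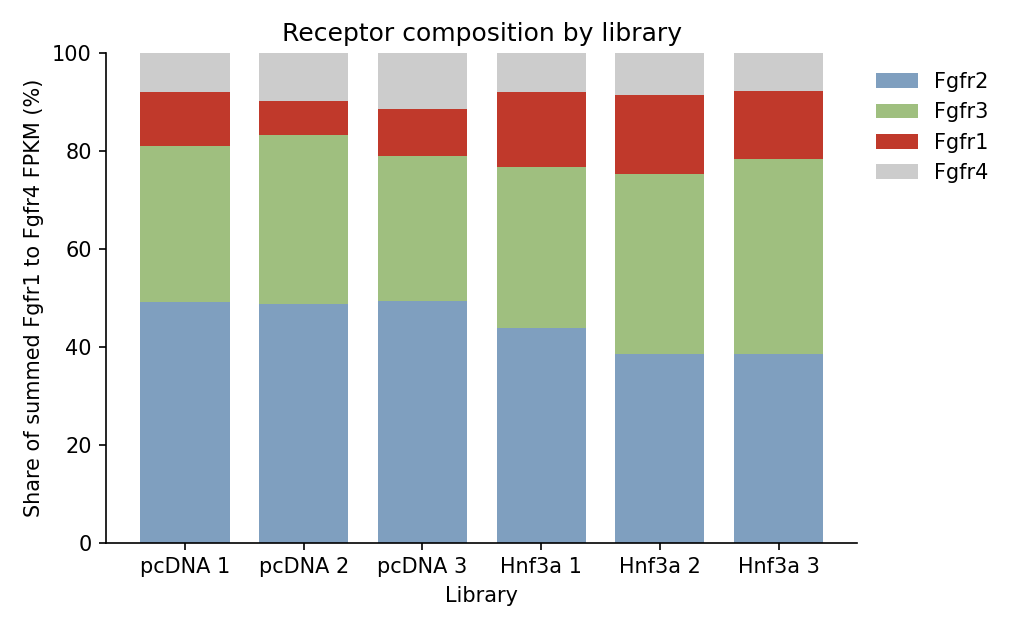
Share of Fgfr1, Fgfr2, Fgfr3 and Fgfr4 in their summed FPKM, in percent, with 1 bar per library. The Fgfr1 segment is 13.98% to 16.2% of the bar in Hnf3a libraries and 6.93% to 11.0% in pcDNA libraries.

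The summed level of the 5 ligand genes was 53.8 ± 2.05 FPKM in the Hnf3a group and 51.5 ± 3.27 FPKM in the pcDNA group (SD, n = 3). Fgf7 made up 91.0% ± 0.147 and 93.5% ± 0.215 of it, and Fgf1 made up 8.11% ± 0.135 and 5.57% ± 0.281 (SD, n = 3). The share of Fgf1 was between 8.00% (replicate 1) and 8.26% in Hnf3a libraries and between 5.32% and 5.87% in pcDNA libraries.

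The genes whose pattern over the 6 libraries was most like that of Fgf1, by Pearson's r of log2 CPM, were Mpped1 (0.997), Nckap1l (0.997), Dcdc2a (0.997), Tnnc2 (0.996) and Srd5a1 (0.996). For Fgfr1 the r with Fgf1 was 0.935. These r values rest on 6 libraries in 2 groups, so that any gene separating the groups scores high, and they are given as a description. The fold differences were unlike. Dcdc2a, Tnnc2 and Srd5a1 had log2 fold changes of 0.41, 0.44 and 0.30, whereas Mpped1 had 68, 131 and 89 counts with HNF3α and 0 in each pcDNA library.

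The rest of the pathway was described with 6 lists holding 119 further genes, of which 111 were in the table and 96 were tested. By edgeR's quasi-likelihood test, 10 of the 96 (10.4%) passed an adjusted p of 0.05, 4 higher and 6 lower, beside 3.17% of all genes tested. The 6 lists were chosen with earlier results of these data known, so nothing is read from this share or from those by list. The median log2 fold change of the 96 was 0.0070. Without 1 library the count was 8, 4 and 11 for Hnf3a replicates 1, 2 and 3 left out and 4, 5 and 5 for pcDNA replicates 1, 2 and 3 left out. In each of the 3 limma fits the count was 4 (Dusp4, Fos, Ier3 and Phlda1), so that the other 6 genes lost the call there.

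Of the 17 other FGF ligand genes, 12 were in the table and 4 were tested, with 0 past the threshold by edgeR, by the DESeq2 Wald test or by limma on log2(FPKM + 0.1), and 0 at an unadjusted p under 0.05 in any of these. The most abundant were Fgf18, at 7.07 ± 1.10 and 6.72 ± 0.696 FPKM, and Fgf13, at 5.08 ± 0.297 and 4.80 ± 0.386 FPKM, in the Hnf3a and pcDNA groups (SD, n = 3). The product of Fgf13 stays inside the cell and does not act through the receptors. Both had higher means than Fgf1, and their log2 fold changes were 0.06 and 0.08. Among 22 genes for co-receptors and FGF carriers, 19 were tested, and 0 passed by edgeR, by the DESeq2 Wald test or by limma on log2(FPKM + 0.1), with 5, 5 and 1 at an unadjusted p under 0.05. Sdc4, a heparan sulfate proteoglycan of the cell surface, stood at 197.1 ± 1.43 and 192.7 ± 2.44 FPKM, and Fgfbp1, a secreted carrier that releases FGFs from the matrix, at 65.8 ± 4.71 and 70.8 ± 1.89 FPKM (SD, n = 3, Hnf3a then pcDNA). The Klotho genes were scarcely detected. Kl had between 4 and 29 counts and Klb between 4 and 11, and neither passed the filter. S100a13, whose product takes part in export of the Fgf1 product, had a log2 fold change of -0.38 ± 0.15 (SE; edgeR adjusted p = 0.27). Syt1, of the same list, went the other way, at 1.53 ± 0.56 (SE; edgeR adjusted p = 0.22), on 8 to 80 counts per library. Of the 19 genes tested, 8 had log2 fold changes above 0 and 11 below.

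Of 19 heparan sulfate genes tested, 2 rose (10.5%, beside 3.17% of all genes tested). Limma on log2(FPKM + 0.1) called 0 of them, with 7 at an unadjusted p under 0.05, and the DESeq2 Wald test called Hpse as well, which encodes heparanase and had a log2 fold change of -0.40 in the edgeR fit. Hs3st3a1, a 3-O-sulfotransferase, stood at 1.002, 1.05 and 1.07 FPKM with HNF3α and at 0.703, 0.594 and 0.755 FPKM with the empty plasmid, a log2 fold change of 0.59 ± 0.14 (SE; edgeR adjusted p = 0.0395). Hs2st1, a 2-O-sulfotransferase, had a log2 fold change of 0.17 ± 0.041 (SE; edgeR adjusted p = 0.0445). The groups of Hs3st3a1 did not overlap, but it lost the call without any one of the 6 libraries, at edgeR adjusted p values from 0.0648 to 0.171. Hs2st1 kept it only without Hnf3a replicate 3 (edgeR adjusted p = 0.0280), and the others gave 0.0766 to 0.207. Without Hnf3a replicates 2 and 3 together the log2 fold change was 0.55 for Hs3st3a1 and 0.17 for Hs2st1. The most abundant of the list, Hs6st1 and Ext1, had log2 fold changes of -0.047 and -0.096.

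The intracellular cascade differed little. Of 25 adaptor and ERK cascade genes, 1 fell: Map2k1, which encodes the kinase MEK1, with a log2 fold change of -0.14 ± 0.034 (SE; edgeR adjusted p = 0.0356). It lost the call without each library except Hnf3a replicate 3 (edgeR adjusted p from 0.0617 to 0.202). Without Hnf3a replicates 2 and 3 together its log2 fold change was -0.15. Crk and Ptpn11, the most abundant of the list, had log2 fold changes of 0.0052 and -0.0098. All 25 lay between -0.18 and 0.090.

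Feedback genes moved both ways, with 2 of 13 (15.4%) past the threshold. Dusp4, a phosphatase that inactivates ERK, stood at 17.3, 17.6 and 16.3 FPKM with HNF3α and at 20.9, 21.4 and 21.2 FPKM with the empty plasmid. It fell by 0.32 ± 0.043 (SE) on the log2 scale (edgeR adjusted p = 7.54e-04), and it passed in all 17 alternative settings. Spry1, a Sprouty inhibitor of receptor tyrosine kinase signalling, rose by 0.15 ± 0.038 (SE; edgeR adjusted p = 0.0413). It lost the call without any one of the 6 libraries (edgeR adjusted p from 0.0597 to 0.210). Without Hnf3a replicates 2 and 3 together its log2 fold change was 0.15. Dusp6 and Dusp5, the most abundant of the list, had log2 fold changes of 0.082 and -0.017. Those of Spry2 and Spry4 were -0.013 and 0.076.

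ERK-responsive transcription genes held the most calls, with 5 of 16 (31.2%) past the threshold, 4 lower and 1 higher. Of the 16, 9 had log2 fold changes above 0 and 7 below, with a median of 0.045. The DESeq2 Wald test called Egr1 as well, which had a log2 fold change of 0.25 ± 0.064 (SE) in the edgeR fit. Limma on log2(FPKM + 0.1) called Ier3, Phlda1 and Fos. In each of these tests 9 had an unadjusted p under 0.05. Fos, an immediate early gene of the AP-1 factor, stood at 11.9, 11.7 and 11.5 FPKM with HNF3α and at 17.0, 16.8 and 18.5 FPKM with the empty plasmid. It fell by 0.59 ± 0.052 (SE) on the log2 scale (edgeR adjusted p = 1.69e-05). Ier3, another immediate early gene, fell from 280.4 ± 2.58 to 230.7 ± 7.35 FPKM (SD, n = 3), with a log2 fold change of -0.29 ± 0.031 (SE; edgeR adjusted p = 9.39e-05). Fos and Ier3 passed in all 17 alternative settings. Phlda1 fell by 0.19 ± 0.036 (SE; edgeR adjusted p = 0.00862), and missed the threshold only without pcDNA replicate 3 (edgeR adjusted p = 0.0533). Ccnd1, the cyclin D1 gene, fell by 0.11 ± 0.026 (SE; edgeR adjusted p = 0.0355). Among the libraries left out in turn, it kept the call only without Hnf3a replicate 1 (edgeR adjusted p = 0.0274, the others 0.0596 to 0.222). Without Hnf3a replicates 2 and 3 together its log2 fold change was -0.097.

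Etv5, an ETS factor gene known as a readout of FGF signalling, went the other way. It stood at 5.06, 5.65 and 5.16 FPKM with HNF3α and at 3.75, 4.45 and 4.06 FPKM with the empty plasmid. The groups did not overlap, and it rose by 0.36 ± 0.074 (SE; edgeR adjusted p = 0.0163). Without Hnf3a replicate 2, pcDNA replicate 1 or pcDNA replicate 3 the edgeR adjusted p was 0.114, 0.109 and 0.0810. Its log2 fold change was 0.30 without Hnf3a replicates 2 and 3 together. The 3 limma fits gave adjusted p values from 0.0774 to 0.0843. The other Etv genes of the list did not pass. Etv4 had a log2 fold change of 0.033 ± 0.035 (SE; edgeR adjusted p = 0.79), and Etv1 one of -0.36 ± 0.38 (SE; edgeR adjusted p = 0.78).

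**Figure D5:**
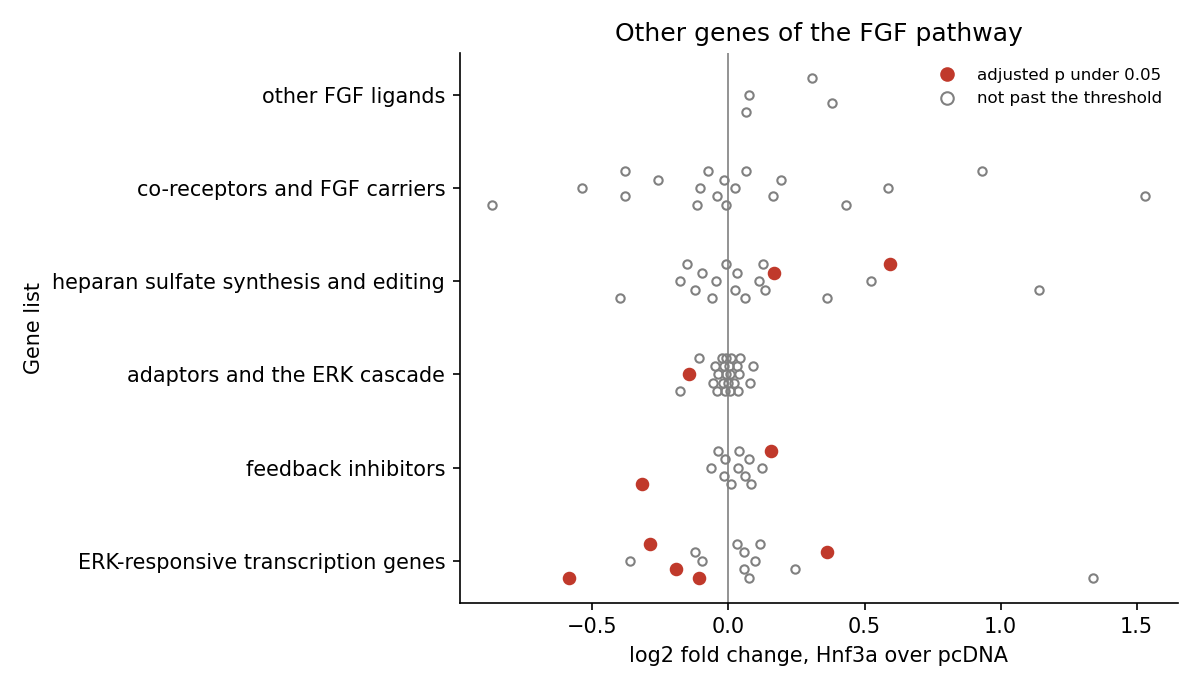
Log2 fold change, Hnf3a over pcDNA, of the 96 tested genes of the 6 pathway lists, with 1 point per gene (red, edgeR adjusted p under 0.05; open grey, not past the threshold). The 25 adaptor and ERK cascade genes lie between -0.18 and 0.090, and the list of ERK-responsive transcription genes holds 4 red points below 0 and 1 above.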

How the data were processed

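Bulk RNA sequencing of 6 TKPTS libraries was read from a table of the whole series. The sequencing and bioinformatics were carried out by a company. The submitters' processing notes name cutadapt 1.9, HISAT2 2.0.4, UMI-tools, StringTie 1.3.4d, DESeq2, edgeR and the build mm10. The annotation and the use of strand are not given in the sources used here. The authors deposited an estimated count, in whole numbers, and an FPKM value per gene and library. The deposited FPKM values were used for levels and the deposited estimated counts for all comparisons. Coordinates are those of the table and of GRCm38, since 25765 of the 29514 genes that GENCODE vM21 also holds were placed identically there, Fgfrl1 not among them.

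After filterByExpr and TMM scaling, groups were compared two-sided with edgeR 4.0.16 (glmQLFit, robust, glmQLFTest, no covariate) in R 4.3.3. The Benjamini-Hochberg adjustment ran over 17824 genes with a threshold of 0.05. An exact permutation test of 3 against 3 cannot go below 0.1. The labels do not say that the replicates are separate cultures, so p-values measure only the spread between these samples. The 10 genes and all lists were chosen with earlier results of these data known. Genes were named if they were among the 10, overlapped one of them, were listed pathway genes past the threshold or the 2 most abundant of a list, or were the 5 most like Fgf1. S100a13, Syt1, Egr1, Etv1, Etv4, Spry2, Spry4, Kl, Klb and the marker genes given by name were singled out after their values were seen. Levels were compared between genes in FPKM only. Promoters came from RefSeq, of which the 50 bases after the start were left out. Alternatives were other filters and scalings, counts divided by 4, limma 3.58.1 on log2(FPKM + 0.1) or with a pseudocount of 1 or 0.01 (at 0.1 and 1 this scale understates changes of low genes), the Wald test of DESeq2 1.42.0, the replicate number as a block, and leaving out each library. Leaving out Hnf3a replicates 2 and 3 together was chosen after seeing the data, and leaves 1 Hnf3a library.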

Additional observations from a re-analysis of the deposited data

How the results depend on the processing

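The log2 fold change of Fgf1, chosen on this comparison, was lowest among 17 alternative settings with limma on log2(FPKM + 1), at 0.47, and 0.57 to 0.62 when each library was left out. The number of genes past the threshold, 565, was 265, 248 and 271 in the limma fits with pseudocounts of 0.1, 1 and 0.01, 322 without Hnf3a replicates 2 and 3 together, and 263 to 643 without each library in turn. For the pathway lists, 10 became 4 in each of the 3 limma fits, and 4 to 11 without each library. The causes were not tested. Total-count scaling called 230 higher and 344 lower.

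Libraries with the same replicate number deviated from their group means with correlations of -0.021, -0.036 and -0.12. No shared deviation by number was seen, but whether samples of the same number were handled together cannot be told from these values. With the replicate number as a block, 463 genes passed, 6 pathway genes passed (1 higher and 5 lower, 5 of them shared with the 10), and the log2 fold change of Fgf1 was 0.60.

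The difference in the Fgfr1 share of receptor transcripts was 7.00 percentage points by counts instead of FPKM and 4.81 to 6.83 without each library. Fgfr1 was not tested under the filter at 1 FPKM. The log2 fold changes of Fgf7, Fgf21, Fgfr2 and Fgfr4, all within 1 standard error of 0, changed sign in 2 to 6 of the settings. Depth limits Fgf9, Fgf21, Fgf2 and Fgfr4, which had under 100 counts in every library.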
